A study of Mus musculus with 10 samples.

Results

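Retinoic acid is made from retinol, the circulating alcohol form of vitamin A, in a pair of oxidation steps. Retinol dehydrogenases and some alcohol dehydrogenases oxidise retinol to retinaldehyde, a reversible step that retinaldehyde reductases such as Dhrs3 run backwards, and the Aldh1a enzymes then oxidise retinaldehyde to retinoic acid irreversibly. Retinoic acid acts through the nuclear receptors Rara, Rarb and Rarg, and in the ovary it is best known for its link to the entry of fetal germ cells into meiosis. The 10 genes described here are the mouse enzymes of these steps, taken by symbol from the 24306 genes of the deposited tables: Rdh10, Rdh5, Dhrs9, Adh1 and Adh7 for the retinol step, Rdh11 and Dhrs3, which act mainly in the reverse direction, and Aldh1a1, Aldh1a2 and Aldh1a3 for the last step. All 10 were present in both the count and the FPKM table.

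The enzymes were measured by polyA RNA sequencing in whole ovaries taken at 6 weeks of age from mice of mixed C57BL/6 and 129 descent. The 2 Dmrt1 het Rar mutants carried 1 floxed Dmrt1 allele beside a wild-type one, floxed Rara, Rarb and Rarg on both chromosomes, and Sf1-Cre. The 3 Rar mutants had the same floxed receptor alleles and Sf1-Cre with wild-type Dmrt1. The 5 controls had the floxed receptor alleles and wild-type Dmrt1 but no Cre, so the floxed alleles are shared by all groups and Cre by the mutants alone. Sf1-Cre is a Cre recombinase under the promoter of Nr5a1, a gene active in somatic cells of the gonad and in steroid-making tissue, so germ cells are not its target. Dmrt1 is a regulator of gonadal sex. The series' title asks whether somatic cells of the developing ovary need retinoic acid signalling. Its design text speaks of 2 genotypes with 5 replicates apiece. That number is reached only if both kinds of Cre-positive ovary are joined, and this pooled group is called Rar-deleted here.

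Total counts were 21064856 to 25920131 per library. Whole gonads were used, and 7 of 7 granulosa markers were detected, with summed levels of 2096 to 6272 CPM (counts scaled to library size) over the 10 libraries. Rarg, 1 of the 3 deleted receptors, had 20.5 and 22.1 CPM in Dmrt1 het Rar mutants and 14.9, 19.3 and 17.5 CPM in Rar mutants, against 24.4, 27.5, 32.8, 30.4 and 32.3 CPM in controls. Every Rar-deleted library lay below every control (1.09% of genes tested did so). The log2 fold change of -0.64 (SE 0.14) did not pass the edgeR test (adjusted p = 0.190). A second test, DESeq2, called Rarg in Rar-deleted ovaries (adjusted p = 0.00419) and in Rar mutants (adjusted p = 0.000471). DESeq2 did not call it in Dmrt1 het Rar mutants against controls. The other 2 deleted receptors overlapped between the groups. Rara averaged 27.8 ± 4.22 CPM in the Rar-deleted libraries, against 25.8 ± 6.60 CPM in controls, and Rarb averaged 2.52 ± 0.290 CPM in the Rar-deleted libraries, against 3.12 ± 0.856 CPM in controls (SD, n = 5 each). Counts over a whole gene can miss the loss of a floxed part. The sample titles carry numbers, and on the first principal component (35.5% of the variance) the 4 libraries with numbers under 7800 lay at -49.3 to -40.0 and the other 6 at 2.80 to 52.9. The lower numbers are both Dmrt1 het Rar mutants, Rar mutant 1 and Control 1, so for Dmrt1 het Rar mutants the number set and the genotype cannot be told apart except against those 2 libraries. The labels do not say that libraries of a group came from separate animals, and p-values measure only the spread between them.

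The stretches of DNA just before 4 of the genes are shown. Adh7 is the enzyme with the largest fold change in Rar mutants, and Adh1 is its neighbour on the chromosome. Aldh1a2 is the retinoic acid maker with the largest difference between both kinds of mutant. Dhrs3 is a reductase whose groups overlapped, and the first of its 3 windows is shown. Rdh11, also a reductase, is not shown. Each is the 250 bases before a RefSeq gene start (GRCm38.p6, plus strand), at chr3:138217523-138217772 for Adh7, chr3:138277335-138277584 for Adh1, chr9:71215539-71215788 for Aldh1a2 and chr4:144892577-144892826 for Dhrs3. The Adh1 window lies inside the longer gene model of GENCODE. Capitals mark hexamers bound by retinoic acid receptors (AGGTCA itself, its variant GGGTCA, the form AGTTCA and likewise GGTTCA, on either strand).
Adh7: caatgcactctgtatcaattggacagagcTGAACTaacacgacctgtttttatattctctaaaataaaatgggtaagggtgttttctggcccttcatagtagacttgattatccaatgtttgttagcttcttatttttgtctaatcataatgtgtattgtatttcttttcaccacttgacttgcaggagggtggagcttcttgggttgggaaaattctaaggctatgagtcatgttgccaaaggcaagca
Adh1: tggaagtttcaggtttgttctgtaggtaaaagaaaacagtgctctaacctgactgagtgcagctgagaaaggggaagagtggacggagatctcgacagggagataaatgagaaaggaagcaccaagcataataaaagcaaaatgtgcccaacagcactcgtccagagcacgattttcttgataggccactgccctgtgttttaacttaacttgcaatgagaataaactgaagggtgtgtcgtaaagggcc
Aldh1a2: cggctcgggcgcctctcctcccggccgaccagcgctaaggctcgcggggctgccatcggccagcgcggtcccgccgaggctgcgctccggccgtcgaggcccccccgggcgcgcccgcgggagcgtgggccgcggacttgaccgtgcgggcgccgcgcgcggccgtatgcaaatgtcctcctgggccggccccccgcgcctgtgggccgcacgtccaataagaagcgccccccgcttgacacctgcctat
Dhrs3: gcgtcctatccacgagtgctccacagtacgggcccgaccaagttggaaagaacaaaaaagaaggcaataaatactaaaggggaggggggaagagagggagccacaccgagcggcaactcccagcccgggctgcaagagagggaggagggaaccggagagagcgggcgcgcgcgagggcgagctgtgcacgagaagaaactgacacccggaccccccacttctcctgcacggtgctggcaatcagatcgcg
The Adh7 window held a single hexamer, AGTTCA on the opposite strand with its first base at -221, and the other 3 windows shown held none. Over 12 windows of 8 enzymes, 5 held a hexamer, against 38.6% of 32851 promoter windows of the same length. Pairs of these hexamers in the same direction, spaced by 5, 2 or 1 bases, were in 0 of 12 windows and in 0.0883%, 0.174% and 0.164% of all windows. CAAGGTCA, the motif of the Nr5a1 protein, which contains AGGTCA, was in 0 of 12 windows and 1.33% of all. The Adh7 window was poor in G and C (38.0%, with 1 CpG) and the Aldh1a2 window rich (77.6%, with 40 CpG), on either side of the median of 52.4% and 6 CpG. These matches describe letters and were not tested as sites.

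Aldh1a1, a cytosolic retinaldehyde dehydrogenase, was the most abundant of the 10 enzymes in all 3 groups, with 843 FPKM on average in Dmrt1 het Rar mutants (n = 2), 709 ± 285 FPKM in Rar mutants (SD, n = 3) and 986 ± 503 FPKM in controls (SD, n = 5). FPKM is a level per length of transcript, so levels of different genes can be set side by side. Among all genes Aldh1a1 ranked between 40 and 245 in single libraries. Adh1 was second, at 89.6 FPKM in Dmrt1 het Rar mutants, 177 ± 62.6 FPKM in Rar mutants and 108 ± 44.0 FPKM in controls. In controls the order went on with Aldh1a2 at 38.9 ± 7.72 FPKM, Dhrs3 at 26.7 ± 9.61 FPKM, Rdh11 at 14.2 ± 2.57 FPKM, Rdh10 at 3.54 ± 0.567 FPKM and Aldh1a3 at 1.65 ± 0.327 FPKM. Rdh5 at 0.989 ± 0.104 FPKM, Adh7 at 0.682 ± 0.506 FPKM and Dhrs9 at 0.0460 ± 0.0314 FPKM came last. The control ranges of Aldh1a2 and Dhrs3 overlapped, as did those of Rdh5 and Adh7, and no other neighbours in that order did.

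The order was nearly the same in the mutants, with 1 change in each group. In Rar mutants Adh7 stood seventh at 5.39 ± 1.69 FPKM, above Aldh1a3 and Rdh5, and it was ninth in Dmrt1 het Rar mutants (0.662 FPKM) and in controls. Among all genes, Adh7 ranked 7262 to 9756 in the Rar mutant libraries, against 13579 to 19614 in controls. In Dmrt1 het Rar mutants Dhrs3 (27.1 FPKM) and Aldh1a2 (26.1 FPKM) changed places.

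**Figure D1:**
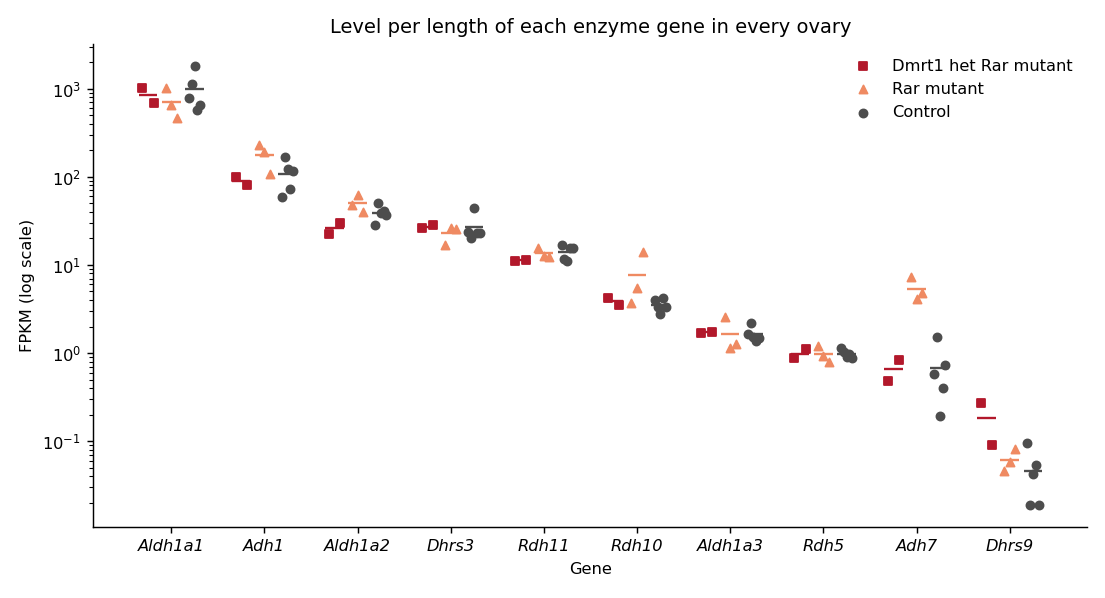
FPKM of the 10 enzymes in each library on a log scale, with Dmrt1 het Rar mutants, Rar mutants and controls side by side and a short line at each group mean. Genes run in the order of their control means, so Aldh1a1 (986 FPKM in controls) is at 1 end and Dhrs9 (0.0460 FPKM) at the other, and the Rar mutant points of Adh7 stand above the other groups.

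Between the genotypes, no enzyme passed the test across all genes in any of the 4 comparisons (edgeR quasi-likelihood test, Benjamini-Hochberg adjusted p under 0.05). The test called 0 of 9 enzymes tested for Rar-deleted ovaries against controls, where it called 0.111% of 18954 genes. It called 0 of 10 for Rar mutants against controls (0.00972% of 20570 genes), 0 of 10 for Dmrt1 het Rar mutants against controls (0.0194%) and 0 of 10 for Dmrt1 het Rar mutants against Rar mutants (0%). With so few calls among all genes, the absence of a call says little about the enzymes. At an unadjusted p under 0.05 the numbers were 2 of 9 (8.47% of all genes), 2 of 10 (9.45%), 2 of 10 (17.3%) and 4 of 10 (16.9%). DESeq2, a second count test, called 1 enzyme in Rar-deleted ovaries (0.886% of all genes) and 1 in Rar mutants (1.82%), both times Adh7. DESeq2 called 0 in Dmrt1 het Rar mutants against controls (1.68%), and Adh7 and Aldh1a2 in Dmrt1 het Rar mutants against Rar mutants (3.32%). The median log2 fold change of the enzymes was 0.03 in Rar-deleted ovaries (0.002 over all genes tested), 0.18 in Rar mutants (-0.02 over all), -0.02 in Dmrt1 het Rar mutants (-0.02 over all) and -0.11 between both kinds of mutant (-0.01 over all). Dhrs9 was too low to be tested in the pooled comparison and in a fit of Rar mutants and controls alone. It passed the filter on low counts in the fit of all 3 groups, with its highest level in a Dmrt1 het Rar mutant. It is among the enzymes at an unadjusted p under 0.05 in both comparisons of Dmrt1 het Rar mutants, so its place in those counts is no support. The comparisons with controls share the same 5 controls.

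**Figure D2:**
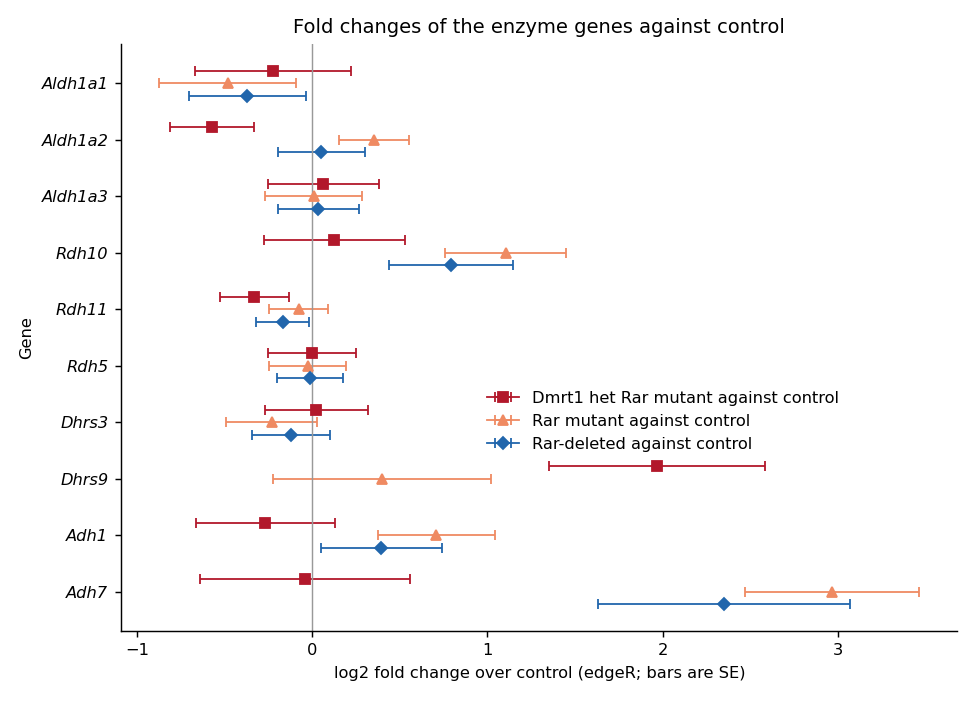
Fitted log2 fold change over control for each enzyme with its SE (bars), for Rar-deleted ovaries, Rar mutants and Dmrt1 het Rar mutants. Adh7 lies farthest to the right in Rar mutants (2.97) and at -0.04 in Dmrt1 het Rar mutants, while most other points lie within 1 log2 unit of 0.

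Adh7, an alcohol dehydrogenase active on retinol and known for its expression in stomach epithelium, had the largest difference. Its counts were 44 and 73 in Dmrt1 het Rar mutants and 702, 379 and 416 in Rar mutants, against 54, 144, 16, 39 and 69 in controls. As CPM these were 1.86 and 3.22 CPM in Dmrt1 het Rar mutants and 27.7, 15.7 and 17.9 CPM in Rar mutants, against 2.22, 5.72, 0.735, 1.53 and 2.76 CPM in controls. All 3 Rar mutants lay above all 5 controls, and both Dmrt1 het Rar mutants lay inside the control range. Of all genes tested, 2.39% had Rar mutants above controls without overlap. Over the 4 comparisons in the order given above, the groups did not overlap in either direction for 0 of 9 enzymes (1.78% of all genes), 1 of 10 (5.17%), 0 of 10 (28.5%) and 5 of 10 (39.3%). The last count includes Dhrs9, which passed the low-count filter with its highest level in a Dmrt1 het Rar mutant. Its place in that count is no support.

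Rar mutants averaged 20.4 ± 6.38 CPM of Adh7 (SD, n = 3) and controls 2.59 ± 1.91 CPM (SD, n = 5), a ratio of 7.87. The fitted log2 fold change was 2.97 (SE 0.50, approximate 95% interval 1.79 to 4.14), with an unadjusted p of 9.86e-05 and an edgeR adjusted p of 0.0800, the 24th smallest p among all genes. DESeq2 gave an adjusted p of 4.46e-06 in the same contrast. In the authors' deposited table, which lists 185 genes for Rar mutants against controls, Adh7 is the single enzyme of the 10, with a shrunken log2 fold change of 1.82 (SE 0.307) and an adjusted p of 6.03e-06. Since that table comes from the same libraries, it is no independent measurement.

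Over all Rar-deleted ovaries, the log2 fold change of Adh7 was 2.35 (SE 0.72, 95% interval 0.69 to 4.01, edgeR adjusted p = 0.460), with 4 of 5 libraries above the control mean. DESeq2 called this difference (adjusted p = 0.0366). Dmrt1 het Rar mutants differed from controls by -0.04 (SE 0.60, 95% interval -1.46 to 1.37). Set against each other, Dmrt1 het Rar mutants had 2.54 ± 0.964 CPM (SD, n = 2) and Rar mutants 20.4 ± 6.38 CPM (SD, n = 3), a log2 fold change of -3.01 (SE 0.71) that edgeR did not call (adjusted p = 0.195) and DESeq2 did (adjusted p = 0.000624).

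Adh7 was higher in Rar mutants within both number sets. Among libraries numbered 7800 or over, 2 Rar mutants against 4 controls gave a log2 fold change of 2.63 (edgeR adjusted p = 0.137). Among the lower numbers, Rar mutant 1 against Control 1 gave 3.64, a difference of 1 library a group with no replicate check. With the number set as a term over all libraries the value was 2.90 (adjusted p = 0.0637). Leaving out single libraries gave 2.69 to 3.48. The gene passed the edgeR threshold without Rar mutant 1 (adjusted p = 0.0371) and without Control 2 (adjusted p = 0.0339). Without Rar mutant 1, 384 genes were called, against 2 with all libraries, so that pass is not particular to Adh7. Control 2 was the control with the most Adh7 (5.72 CPM), so the pass without it is no added support.

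Other cell types and nearby genes were read beside Adh7. Adh7 lies on chromosome 3 at 138217760 to 138233382 (GRCm38, plus strand), followed by Adh1 at 138260991 to 138290698, in the alcohol dehydrogenase cluster. Adh5, the formaldehyde-detoxifying member of that cluster, had 146 and 136 CPM in Dmrt1 het Rar mutants and 166, 176 and 174 CPM in Rar mutants, against 137, 186, 199, 188 and 175 CPM in controls, with a log2 fold change of -0.04 (SE 0.14) in Rar mutants. Of the 4 adrenal cortex markers looked at, all were in the tables, and their summed level was 0.719 to 0.839 CPM in Dmrt1 het Rar mutants and 2.92 to 51.1 CPM in Rar mutants, against 0.123 to 0.834 CPM in controls. Most of the Rar mutant sum was Cyp11b1, the last enzyme of glucocorticoid synthesis, at 49.8 and 12.5 CPM in Rar mutants 2 and 3. The defining marker Cyp21a1 stayed at 0 to 0.0414 CPM in the Rar mutants. Cyp11b2 had 0.118, 1.03 and 0.343 CPM there, against at most 0.0391 CPM in controls. Mc2r was highest in Dmrt1 het Rar mutants, at 0.592 and 0.574 CPM, with 0.355, 0.166 and 0.0429 CPM in Rar mutants. The highest Adh7 was in Rar mutant 1 and the highest Cyp11b1 in Rar mutant 2. The part of these transcripts in the Adh7 difference was not tested. In bulk tissue, fewer cells of a type and less RNA per cell cannot be told apart.

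Genes with the profile most like that of Adh7 over the 10 libraries were Gm20125, Mrap and Tmem200a. Likeness was the root mean square difference of centred log2 CPM, which was 0.738, 0.830 and 0.849 for these genes, against 1.60 for a flat profile. Mrap, an accessory protein of the ACTH receptor, had 27.7 and 39.9 CPM in Dmrt1 het Rar mutants and 148, 285 and 532 CPM in Rar mutants, against 42.9, 109, 28.6, 70.7 and 77.2 CPM in controls. Like Adh7, its 3 Rar mutant values lay above all controls, but the order of the 3 was different.

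**Figure D3:**
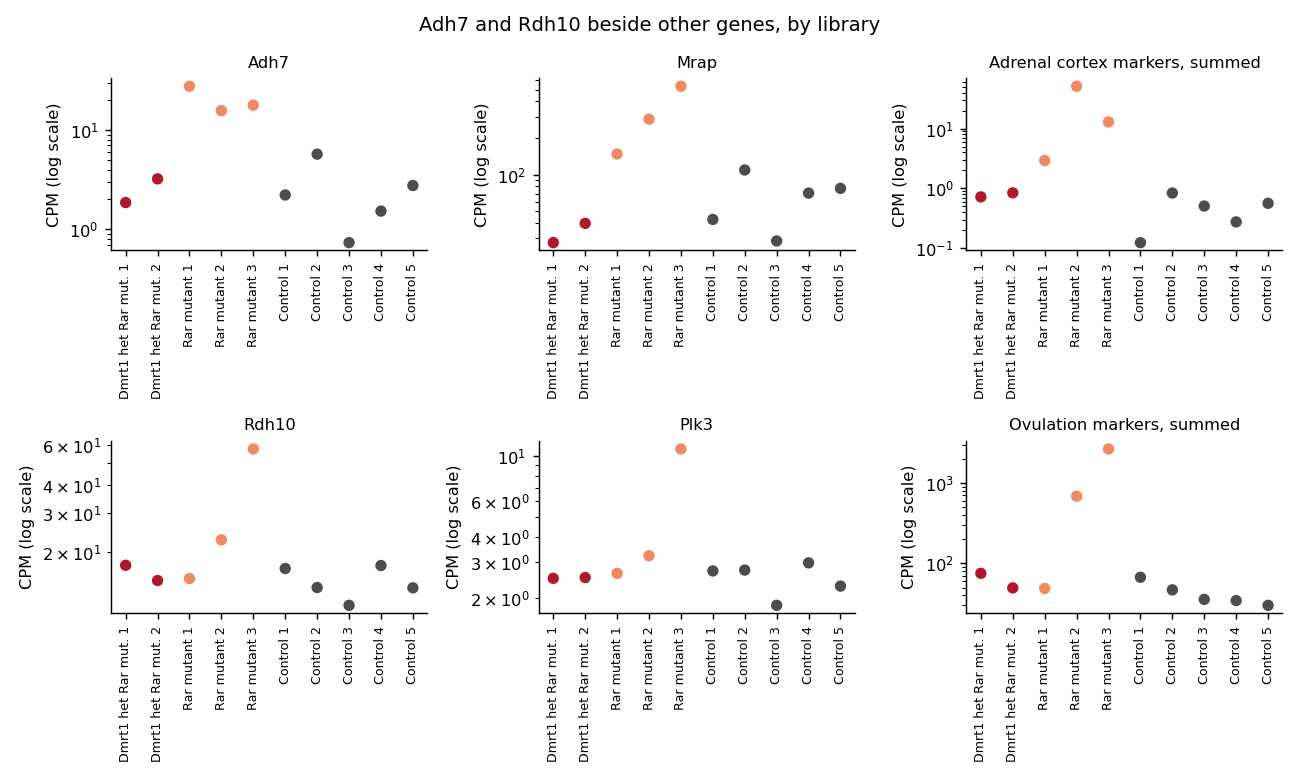
CPM in each of the 10 libraries on log scales for Adh7, Mrap and the summed adrenal cortex markers (upper row) and for Rdh10, Plk3 and the summed ovulation and cumulus markers (lower row), with Dmrt1 het Rar mutants first, then Rar mutants, then controls. Adh7 and Mrap are above all controls in 3 of 3 Rar mutants, the adrenal cortex sum peaks in Rar mutant 2 (51.1 CPM), and Rdh10, Plk3 and the ovulation sum peak in Rar mutant 3 (57.5, 10.9 and 2643 CPM).

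Adh1, the alcohol dehydrogenase that also clears ethanol and excess retinol, had 225 and 181 CPM in Dmrt1 het Rar mutants and 516, 433 and 240 CPM in Rar mutants, against 134, 377, 278, 162 and 263 CPM in controls. The Rar mutant with the lowest value lay among the controls, and both Dmrt1 het Rar mutants lay in the control range. Rar mutants differed from controls by a log2 fold change of 0.71 (SE 0.34, edgeR adjusted p = 0.551), and the value was 0.39 (SE 0.35) in all Rar-deleted ovaries. Dmrt1 het Rar mutants averaged 203 ± 30.6 CPM (SD, n = 2) and Rar mutants 396 ± 142 CPM (SD, n = 3), a log2 fold change of -0.98 (SE 0.44, edgeR adjusted p = 0.295) without overlap. Within the number sets the Rar mutant difference was 0.32 for the higher numbers and 1.95 for the lower, where 1 Rar mutant met 1 control with no replicate check. The profiles nearest to Adh1 were those of Sag, Chrd and Hoxa5, at 0.268, 0.338 and 0.348 against 0.594 for a flat profile.

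Rdh10, the membrane-bound dehydrogenase that makes most retinaldehyde in the mouse embryo, had 17.6 and 15.0 CPM in Dmrt1 het Rar mutants and 15.3, 22.8 and 57.5 CPM in Rar mutants, against 17.0, 14.0, 11.7, 17.5 and 13.9 CPM in controls. Rar mutant 3 stood far above the rest, Rar mutant 2 just above the controls, and Rar mutant 1 inside their range. In Rar mutants its log2 fold change came to 1.10 (SE 0.34, unadjusted p = 0.00856, edgeR adjusted p = 0.293), and 0.79 (SE 0.35, adjusted p = 0.584) in all Rar-deleted ovaries. These values rest on Rar mutant 3: without it they were 0.35 and 0.25. Without Rar mutant 1 the Rar mutant value was 1.44 and passed the edgeR threshold (adjusted p = 0.0383), in a fit that called 384 genes. The difference was 1.49 within the higher numbers (adjusted p = 0.109) and -0.14 within the lower.

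Rar mutant 3 also stood apart in genes of ovulation. Of 11 markers of ovulation and cumulus expansion looked at, 10 were in the tables, and their summed level was 75.0 and 49.4 CPM in Dmrt1 het Rar mutants and 48.6, 683 and 2643 CPM in Rar mutants, against at most 67.1 CPM in controls. Of these 10 markers, 8 had their highest level in Rar mutant 3, among them Pgr, the progesterone receptor, at 133 CPM, and Ptgs2, a prostaglandin synthase of ovulating follicles, at 209 CPM. Their controls were at 1.07 to 2.11 CPM and 0.120 to 0.740 CPM. The other 2 peaked in Rar mutant 2, Adamts1, a protease of the ovulating follicle, at 618 CPM and Edn2, a vasoconstrictor peptide, at 34.1 CPM, with 169 and 1.20 CPM in Rar mutant 3. Most of the sum in Rar mutant 2 was Adamts1. Ptgs2, Ereg, Tnfaip6, Btc, Ptx3 and Sult1e1 ranked the Rar mutants as Rdh10 did. Adamts1, Edn2, Has2 and Pgr did not, with Pgr at 1.37 CPM in Rar mutant 2 and 2.17 CPM in Rar mutant 1. The part of ovulatory stage in the Rdh10 difference was not tested. The nearest profiles to Rdh10 were Plk3 (0.139), Dusp10 (0.149) and Arid5a (0.166), against 0.607 for a flat profile. All 3 also peaked in Rar mutant 3, Dusp10 at 30.8 CPM, with 6.29 to 9.16 CPM in controls.

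Of the other enzymes acting on retinol or retinaldehyde, Rdh11 and Rdh5 had small fold changes. Rdh11, a microsomal reductase of retinaldehyde, had 38.7 and 40.3 CPM in Dmrt1 het Rar mutants and 54.1, 43.6 and 42.4 CPM in Rar mutants, against 59.1, 40.3, 38.9, 54.5 and 53.7 CPM in controls. Its log2 fold change in Rar-deleted ovaries was -0.17 (SE 0.15, 95% interval -0.52 to 0.18). Rdh5, the 11-cis retinol dehydrogenase of the retinal pigment epithelium, stayed between 2.19 and 3.39 CPM in all 10 libraries, with a log2 fold change of -0.01 (SE 0.19, 95% interval -0.44 to 0.42) in Rar-deleted ovaries. Of the 50-base stretches of Rdh5 transcripts, 17.3% also occur in transcripts of the overlapping Bloc1s1, so its counts are uncertain to that extent. Dhrs9, a dehydrogenase of retinol and 3-alpha-hydroxysteroids, had 28 and 9 counts in Dmrt1 het Rar mutants and 5, 6 and 8 counts in Rar mutants, against 10, 2, 4, 6 and 2 counts in controls. With 1 library of 28 counts, the fitted log2 fold change of 1.97 (SE 0.62, edgeR adjusted p = 0.243) in Dmrt1 het Rar mutants rests on few reads, and without that library it was 0.99.

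Dhrs3, the reductase that returns retinaldehyde to retinol and is induced by retinoic acid in mouse embryos, had 77.4 and 83.5 CPM in Dmrt1 het Rar mutants and 48.9, 78.2 and 73.5 CPM in Rar mutants, against 69.7, 59.7, 129, 67.1 and 67.8 CPM in controls. The groups overlapped, with the highest value in Control 3 and the lowest in Rar mutant 1. Rar-deleted ovaries differed from controls by -0.12 on the log2 scale (SE 0.22, edgeR adjusted p = 0.861). The fitted difference was -0.23 (SE 0.26) in Rar mutants and 0.02 (SE 0.29) in Dmrt1 het Rar mutants. Without Control 3 the pooled value was 0.13, so no direction can be given.

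Among the enzymes that make retinoic acid, Aldh1a1 varied widely within groups. It had 2086 and 1424 CPM in Dmrt1 het Rar mutants and 2091, 1347 and 931 CPM in Rar mutants, against 1613, 2286, 3741, 1196 and 1351 CPM in controls. The highest control was over 3 times the lowest one, and the groups overlapped. The log2 fold change was -0.37 (SE 0.33, 95% interval -1.14 to 0.40, edgeR adjusted p = 0.705) in Rar-deleted ovaries, -0.48 (SE 0.39) in Rar mutants and -0.22 (SE 0.45) in Dmrt1 het Rar mutants. Its neighbour Aldh1a7 shares 6.54% of the 50-base stretches of Aldh1a1 transcripts, and at 10.4 to 27.7 CPM it was far lower.

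Aldh1a2, the main retinoic acid maker of the mouse embryo and an enzyme of mesothelial tissue, had 51.8 and 68.3 CPM in Dmrt1 het Rar mutants and 109, 141 and 89.2 CPM in Rar mutants, against 65.1, 112, 88.5, 93.2 and 84.0 CPM in controls. Both Dmrt1 het Rar mutants lay below all Rar mutants, and 1 of them below all controls. Against Rar mutants the log2 fold change was -0.93 (SE 0.26, unadjusted p = 0.00456, edgeR adjusted p = 0.206), which DESeq2 called (adjusted p = 0.0333). Against controls it was -0.57 (SE 0.24, edgeR adjusted p = 0.267). The Rar mutants differed from controls by 0.35 (SE 0.20, adjusted p = 0.650), and the pooled value was 0.05 (SE 0.25). The enzymes whose Dmrt1 het Rar mutants lay clear of all Rar mutants were Adh7, Aldh1a2, Adh1 and Rdh11 on the lower side (19% of all genes) and Dhrs9 on the higher side (20.3%). Dhrs9 passed the low-count filter with its highest level in a Dmrt1 het Rar mutant, so its place here is no support.

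Summed markers of the ovarian surface epithelium and mesothelium, a tissue that expresses Aldh1a2, were lowest in the same libraries. All 9 were in the tables, and none was at 0 in all libraries. Their summed level was 149 to 180 CPM in Dmrt1 het Rar mutants and 231 to 424 CPM in Rar mutants, against 242 to 521 CPM in controls. The sums nearest above them were 231 CPM in Rar mutant 1 and 242 CPM in Control 1, also numbered under 7800. Single markers differed: Gpm6a was lowest in Control 3, Krt8 in Rar mutant 1 and Lrrn4 in Rar mutant 2. Both Dmrt1 het Rar mutants have title numbers under 7800, and within these numbers Aldh1a2 is at 65.1 CPM in Control 1 and 109 CPM in Rar mutant 1. The part of surface tissue and of the number set in the Aldh1a2 difference was not tested.

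Aldh1a3, the least abundant of the 3, had 7.87 and 8.22 CPM in Dmrt1 het Rar mutants and 11.9, 5.34 and 5.75 CPM in Rar mutants, against 7.77, 10.1, 7.07, 6.34 and 6.89 CPM in controls. The Rar mutants spanned the whole range of the other groups. Its log2 fold change was 0.03 (SE 0.23, 95% interval -0.50 to 0.57) in Rar-deleted ovaries, and the sign turned to -0.20 with the number set as a term. Of the FPKM summed over the 3 Aldh1a genes, Aldh1a1 took 96.6% ± 1.44 in Dmrt1 het Rar mutants (SD, n = 2), 92.7% ± 2.20 in Rar mutants (SD, n = 3) and 95.5% ± 1.76 in controls (SD, n = 5). The share of Aldh1a2 was 3.18% ± 1.38 in Dmrt1 het Rar mutants, 7.05% ± 2.22 in Rar mutants and 4.36% ± 1.71 in controls. The ranges of these shares overlapped between Rar mutants and controls, and no test was made on them.

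**Figure D4:**
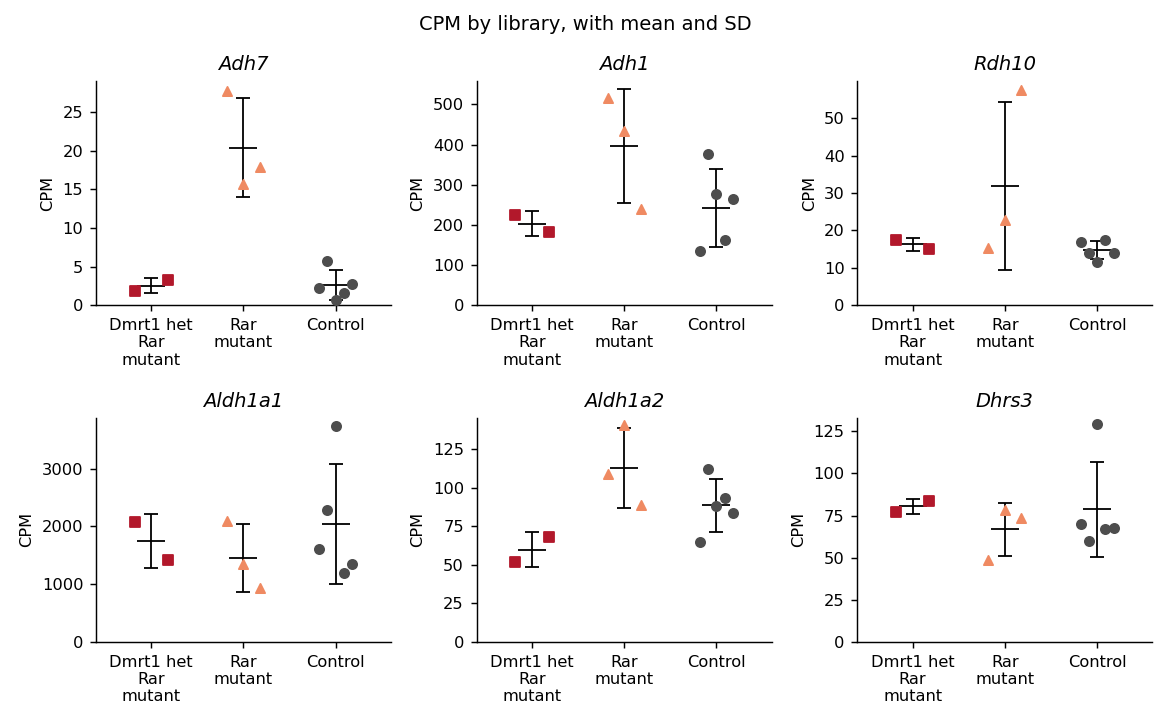
CPM of Adh7, Adh1, Rdh10, Aldh1a1, Aldh1a2 and Dhrs3 in every library, on linear axes from 0, with the mean and SD of each group, Dmrt1 het Rar mutants left, Rar mutants in the middle and controls right. Adh7 is the panel in which all Rar mutants (15.7 to 27.7 CPM) clear all controls (0.735 to 5.72 CPM), and in Rdh10 the spread of Rar mutants comes from 1 library at 57.5 CPM.

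Genes around these steps were counted by list. Of 24 further genes of retinol and retinaldehyde oxidation or reduction, 17 were in the tables and 14 were tested in Rar-deleted ovaries, with 0 called by edgeR, 0 by DESeq2 and 0 at an unadjusted p under 0.05. Their median log2 fold change was 0.02, against 0.002 over all genes tested. The 3 with the smallest p there were Rdh14 (-0.20), Bco2 (-0.62) and Rdh1 (-0.53), of which Bco2 cleaves carotenoids. Of 14 genes of retinoid storage, transport, binding and degradation, 12 were in the tables and 9 were tested, with 0 called by edgeR and a median of -0.33. DESeq2 called Lrat, which esterifies retinol for storage. Lrat averaged 6.00 CPM in the 5 Rar-deleted libraries, against 24.7 CPM in the 5 controls, a log2 fold change of -2.04 (SE 0.38, edgeR adjusted p = 0.0804). Rbp7, a retinol-binding protein, was at -0.83. The authors' deposited table lists Lrat at -1.27 and Cyp26a1, which degrades retinoic acid, at -1.41, both lower in Rar mutants. These are shrunken values, and the unshrunken edgeR values in Rar mutants were -2.02 and -4.17, neither called by edgeR. DESeq2 called both genes lower in that contrast, where it called 1.82% of all genes. Cyp26a1 was near the floor, at 0, 1 and 1 counts in Rar mutants, against 6, 15, 16, 20 and 14 counts in controls. Of the 6 receptor genes, 5 were tested and 0 called by edgeR, while DESeq2 called Rarg. After Rarg the smallest p belonged to Rxrb (-0.19) and Rarb (-0.31).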

How the data were processed

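PolyA RNA of 10 ovary samples was sequenced with a stranded mRNA kit, per the labels. Per the submitters' processing notes, the authors worked on build GRCm38 (mm10) with SAMtools 1.0, STAR 2.4.2a, DESeq2 1.12.3 and Trimmomatic 0.32. What counted the reads, and over which annotation, is not given in the sources used here. The authors deposited raw counts per Ensembl gene and FPKM values. The deposited FPKM follow median-of-ratios size factors within 0.00101 log2 units over 10341 genes. The authors' deposited comparison table gives for each gene, per the file headers, its mean count (a signal), the log2 fold change and standard error, the Wald score, and p-values before and after adjustment. Its means match those of counts scaled by size factors over the 8 Rar mutant and control libraries within 0.0348%.

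Counts were tested in R 4.3.3 with edgeR 4.0.16 (quasi-likelihood, TMM, filterByExpr, robust, two-sided), in a 2-group fit of Rar-deleted ovaries against controls and a 3-group fit for the other comparisons. DESeq2 1.42.0 was an alternative, beside other scaling, no filter, number sets, a replicate block and leaving out each library. CPM are edgeR's counts scaled to library size after TMM, and SE is the size of the fold change over the square root of F. Intervals are built from that SE with a t value on the residual degrees of freedom alone. The edgeR p-values also draw on the spread over all genes, so an interval and its p do not match exactly. The limit that a count of 0 allows was 3 counts (0.116 to 0.142 CPM), which covers counting error alone. Positions came from GENCODE M21 and promoter sequences from RefSeq (GRCm38.p6), which matched 8 of 10 enzymes. The enzymes, lists, markers and tests were chosen with earlier results of these data known. The text names all 10 enzymes, 3 genes with the smallest p per list (1 of them is not reported here), and 3 genes nearest in profile to each of the 3 enzymes with the smallest pooled p. Other named genes (Adh5, Aldh1a7, Cyp26a1 and single markers) were chosen after their values were seen.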

Additional observations from a re-analysis of the deposited data

Results flagged for a closer look

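In groups of 4 or more libraries, 4 of 20 values of an enzyme and group held 1 library far from the others, where chance gives about 1 in 20. Rdh10 in Rar-deleted ovaries was at 57.5 CPM in Rar mutant 3, with the other 4 libraries at 15.0 to 22.8 CPM. Dhrs3 in Rar-deleted ovaries was at 48.9 CPM in Rar mutant 1, with the others at 73.5 to 83.5 CPM. Dhrs3 in controls was at 129.1 CPM in Control 3, with the others at 59.7 to 69.7 CPM. Dhrs9 in Rar-deleted ovaries was at 1.18 CPM in Dmrt1 het Rar mutant 1, with the others at 0.197 to 0.398 CPM.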

How the results depend on the processing

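Of 630 fold changes of the 10 enzymes and Rarg under other settings, 552 kept direction and side of the threshold, 15 were newly called and 63 turned sign, 34 of these on leaving out 1 library; the cause was not tested. Genes called for Rar-deleted ovaries numbered 21, and 168 by DESeq2, 40 with a title-number term, 142 and 0 within numbers of 7800 or over and under 7800. For Rar mutants they were 2, and 374, 85, 142 and 218 in that order, and 1 with only these 2 groups. For Dmrt1 het Rar mutants against controls they were 4, and 346 by DESeq2, 1 with the term and 79 under 7800. Against Rar mutants they were 0, and 682 by DESeq2 and 1088 under 7800. Enzymes called were 1 by DESeq2 in both Rar-deleted ovaries and Rar mutants, 2 in Rar mutants under 7800, and against Rar mutants 2 by DESeq2 and 3 under 7800 (Adh7 and Adh1 lower, Dhrs3 higher at 0.71). Within numbers under 7800 there is 1 Rar mutant and 1 control, so counts of calls there take their spread from few libraries, assume that the lone ones vary alike, and support nothing in the report. No Dmrt1 het Rar mutant has a number of 7800 or over, so these had no value there.

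The largest main log2 fold change that turned sign was 1.10 (Rdh10 in Rar mutants, within the lower numbers). With the title-number term, Aldh1a3 was at -0.20 in Rar-deleted ovaries, -0.15 in Rar mutants, -0.39 in Dmrt1 het Rar mutants and -0.24 against Rar mutants, where Rdh5 was at -0.20. In the higher numbers Aldh1a3 was at -0.46. In the lower numbers, Rar-deleted ovaries had Aldh1a1 at 0.21, Rdh10 at -0.090 and Dhrs3 at 0.0023. Rar mutants there had Aldh1a1 at 0.38, Rdh10 at -0.14, Rdh5 at 0.066 and Dhrs9 at -1.04. Dmrt1 het Rar mutants had Aldh1a1 at 0.12, Rdh10 at -0.064, Adh1 at 0.60 and Adh7 at 0.19, and against Rar mutants Aldh1a1 at -0.26, Aldh1a3 at -0.58, Rdh10 at 0.078 and Rdh5 at -0.28. With no filter Rdh5 was at 0.0054 in Dmrt1 het Rar mutants.

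Same-numbered libraries share only a number: their deviations correlated at 0.442, 0.0114 and 0.248 between Rar mutants and controls, 0.0827 and 0.0941 between Dmrt1 het Rar mutants and controls, and -0.0953 and -0.0388 between both kinds of mutant. With the replicate block 0 genes were called in Rar-deleted ovaries and 0 in Dmrt1 het Rar mutants. Under the block Aldh1a3 was at -0.18 in Rar-deleted ovaries, -0.17 in Rar mutants, -0.21 in Dmrt1 het Rar mutants and -0.038 against Rar mutants, Rdh11 at 0.037 in Rar mutants and Rdh5 at -0.072 against Rar mutants.

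Leaving out each library gave 5 to 52 called genes for Rar-deleted ovaries, 1 to 384 for Rar mutants, 0 to 364 for Dmrt1 het Rar mutants and 0 to 335 against Rar mutants, and 0 to 2 called enzymes in Rar mutants. The highest counts came without Control 1 (52 and 364) and without Rar mutant 1 (384 and 335). Leaving out a Dmrt1 het Rar mutant leaves 1, assumed to vary like the other groups. Fold changes that turned sign ranged, for Rar-deleted ovaries, from -0.16 to 0.20 (Aldh1a2), -0.17 to 0.16 (Aldh1a3), -0.21 to 0.13 (Dhrs3) and -0.096 to 0.060 (Rdh5). For Rar mutants they ranged from -0.46 to 0.21 (Aldh1a3), -0.36 to 0.011 (Dhrs3) and -0.21 to 0.11 (Rdh5). For Dmrt1 het Rar mutants they ranged from -0.49 to 0.47 (Adh7), -0.52 to 0.12 (Aldh1a1), -0.062 to 0.28 (Dhrs3) and -0.16 to 0.16 (Rdh5), and against Rar mutants from -0.050 to 0.61 (Aldh1a1), -0.15 to 0.52 (Aldh1a3) and -0.15 to 0.21 (Rdh5). Depth limits Dhrs9, at 2 to 28 counts.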
